A study of Mus musculus with 2 samples.

Results

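The 10 genes described here, H2-K1, H2-D1, B2m, Tap1, Tap2, Tapbp, Psmb8, Psmb9, Psmb10 and Nlrc5, carry peptides to the cell surface on MHC class I. They were chosen by name, for their place in that pathway, out of the 32285 genes in the count tables. The values come from single cell RNA-seq of the palatal gingiva of female wild type C57BL/6 mice (the J substrain in the study's methods) aged 8 to 12 weeks. One group of mice received CpG ODN, a short synthetic DNA recognised by TLR9, and the other received LPS of P. gingivalis, recognised by TLR2/4. In both groups 3 µl at 1 µg/ml was placed on the palatal gingiva, an oral appliance covered the site for 1 h, and the tissue was harvested on day 4. The cells of 4 mice per ligand were pooled in equal parts and gave a single library. The 2 libraries thus carry no replicate, no untreated gingiva was analysed here, and no test between the ligands was possible.

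MHC class I shows CD8 T cells and NK cells short peptides cut from the proteins a cell makes. The immunoproteasome subunits Psmb8, Psmb9 and Psmb10 cut the peptides, the pump formed by Tap1 and Tap2 carries them into the endoplasmic reticulum, and tapasin, encoded by Tapbp, loads them onto a heavy chain (H2-K1 or H2-D1) held by the light chain beta-2 microglobulin, encoded by B2m. Nlrc5 encodes the transactivator that acts on class I promoters, and interferons are known to raise most of these genes. The gingival epithelium is a stratified barrier in which keratinocytes leave the basal layer, become spinous and are shed from the upper layers.

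Levels are counts of unique molecular identifiers (UMIs, which mark each captured RNA molecule once) summed over the cells of a class, per 1000000 UMIs of that class (CPM). All intervals, given in brackets, are 95% intervals that cover counting error only and not the spread between mice or cells. A gene was called higher or lower between 2 groups of cells where the ratio of CPM was at least 1.5, or at most its inverse, and the interval of the ratio left out 1, among genes with at least 20 UMIs over both groups. The share of all genes tested that met the same rule is given beside each count of members, as the background of that comparison.

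After CpG ODN there were 6219 barcodes and 72173148 UMIs, and after LPS 2016 barcodes and 38656738 UMIs. Of these, 4888 and 1277 had at least 800 detected genes and were kept, with a median of 11078 and 22680 UMIs per cell, so cells of the LPS library were counted more deeply. The libraries shared 5 barcodes, 1 of them among the cells kept. Clusters were named from marker genes, with the members and the other genes of the pathway left out of the clustering. Epithelial-like cells, called keratinocytes below (Krt5, Krt14, Krt15, Krt76), made up 3666 and 960 cells, 75.0% and 75.2% of the libraries. B-like cells (Cd79a, Cd79b, Ms4a1) numbered 283 and 69, germinal centre B-like cells (Rgs13, Mef2b, Bcl6) 239 and 4, T-like cells (Cd3e, Trac) 87 and 27, and myeloid-like cells (Lyz2, Csf1r) 62 and 13. There were 241 and 54 fibroblast-like, 82 and 23 mural-like, 49 and 24 endothelial-like and 105 and 66 simple or gland epithelium-like cells. Ighg2b, Jchain and Mzb1, genes of plasma cells, were also among the leading genes of the germinal centre B-like cells.

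The members lie on 3 chromosomes of GRCm38, with gene bounds from GENCODE M21. H2-K1 (chr17:33996017-34000347, minus strand), Tapbp (chr17:33915899-33929292, plus), Psmb9 (chr17:34181987-34187764, minus), Tap1 (chr17:34187553-34197225, plus), Psmb8 (chr17:34197721-34201454, plus), Tap2 (chr17:34203527-34216321, plus) and H2-D1 (chr17:35262730-35267499, plus) lie in the major histocompatibility region. B2m (chr2:122147686-122153083, plus), Psmb10 (chr8:105935735-105938444, minus) and Nlrc5 (chr8:94434356-94527272, plus) lie elsewhere. RefSeq gave a promoter window on GRCm38.p6 for 8 of the 10 members, leaving out Tap2 and Nlrc5. The bases before the start of the heavy chain gene H2-K1 (chr17:34000348-34000597, minus strand) and of the light chain gene B2m (chr2:122147437-122147685, plus strand) are shown because these 2 products form 1 complex from 2 chromosomes and their levels are compared below. Capitals mark a Y box (CCAAT, the letters bound by NF-Y, here read as ATTGG on the opposite strand), a CRE-type match (TGACG), an NF-kB type match (GGGNNTTCC, in H2-K1) and a core of an interferon-stimulated response element (GAAANNGAA, in B2m).
H2-K1: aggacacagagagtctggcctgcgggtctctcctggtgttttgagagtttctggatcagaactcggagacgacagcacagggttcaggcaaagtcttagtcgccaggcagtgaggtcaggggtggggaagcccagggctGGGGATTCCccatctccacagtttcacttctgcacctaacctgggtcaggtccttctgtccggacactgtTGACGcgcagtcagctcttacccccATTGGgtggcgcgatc
B2m: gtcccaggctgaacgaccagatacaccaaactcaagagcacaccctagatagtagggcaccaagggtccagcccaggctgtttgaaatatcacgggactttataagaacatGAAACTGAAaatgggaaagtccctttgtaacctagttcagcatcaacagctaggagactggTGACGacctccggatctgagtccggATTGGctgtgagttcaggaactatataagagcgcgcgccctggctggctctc

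In both promoters the CRE-type match lies upstream of the Y box, at the same distance in both, with first bases 41 and 16 bases before the start in H2-K1 and 78 and 53 in B2m. The second heavy chain gene, H2-D1, holds the same 3 kinds of match as H2-K1, with CCAAT at a second place, and 166 of 190 bases of the 2 upstream windows (87.4%) are identical once shifted by 60 bases. Its NF-kB type match (chr17:35262912-35262941, plus) and its CRE-type match (chr17:35262980-35263009, plus) are given as stretches of 30 bases, since its window runs into an annotated untranslated region, as those of Tap1 and Psmb9 do. Tap1 and Psmb9 start 226 bases apart on opposite strands, and the Tap1 stretch around its Y box (chr17:34187321-34187350, plus) overlaps the Psmb9 one (chr17:34187331-34187360, minus), in which the same Y box reads ATTGG.
H2-D1 NF-kB type: agcccagggctGGGGATTCCccatctcctc
H2-D1 CRE type: gccgggacactgaTGACGcgctggcaggtc
Tap1 Y box: ggggctcggctttCCAATcagcggctgcgc
Psmb9 Y box: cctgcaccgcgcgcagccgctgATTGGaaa

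Among 32851 RefSeq promoters, searched on both strands over the same 250 bases, 33.8% held CCAAT, 17.8% TGACG, 7.13% GAAANNGAA, 4.98% GGGNNTTCC and 7.02% the GAS letters TTCNNNGAA, whose only match in a member was in Psmb8. The Tapbp window held CCAAT at 2 places, and the Psmb10 window held none of the 5. A match is a description of the letters and not of binding.

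Keratinocytes carried most of the heavy chain RNA of the tissue, at a low share of each cell's UMIs. Of all H2-K1 UMIs they held 67.6% after CpG ODN and 65.2% after LPS, and of those of H2-D1 70.3% and 70.3%. Values given in pairs below follow the same order, CpG ODN first. They held 33.3% and 44.0% of the B2m UMIs and 3.48% and 14.8% of the Psmb8 UMIs. Summed over the 10 members, their level was 350 CPM after CpG ODN and 381 CPM after LPS, the lowest of the named classes apart from 33 and 9 cells rich in hemoglobin and keratin UMIs. The order of the classes was not the same in the 2 libraries. After CpG ODN, endothelial-like cells (4781 CPM), T-like cells (3695), B-like cells (3168), germinal centre B-like cells (2112), myeloid-like cells (1773) and fibroblast-like cells (1471) followed each other, while after LPS the 13 myeloid-like cells were highest (6555 CPM), before T-like (4452), B-like (3822) and endothelial-like cells (3719). The intervals of B-like [3577 to 4079] and endothelial-like cells [3443 to 4012] overlapped after LPS, and those of the other neighbours just named did not. Mural-like cells (549 and 893 CPM), Schwann-like cells (1011 and 1422) and simple or gland epithelium-like cells (1184 and 1336) lay between keratinocytes and fibroblast-like cells.

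**Figure D1:**
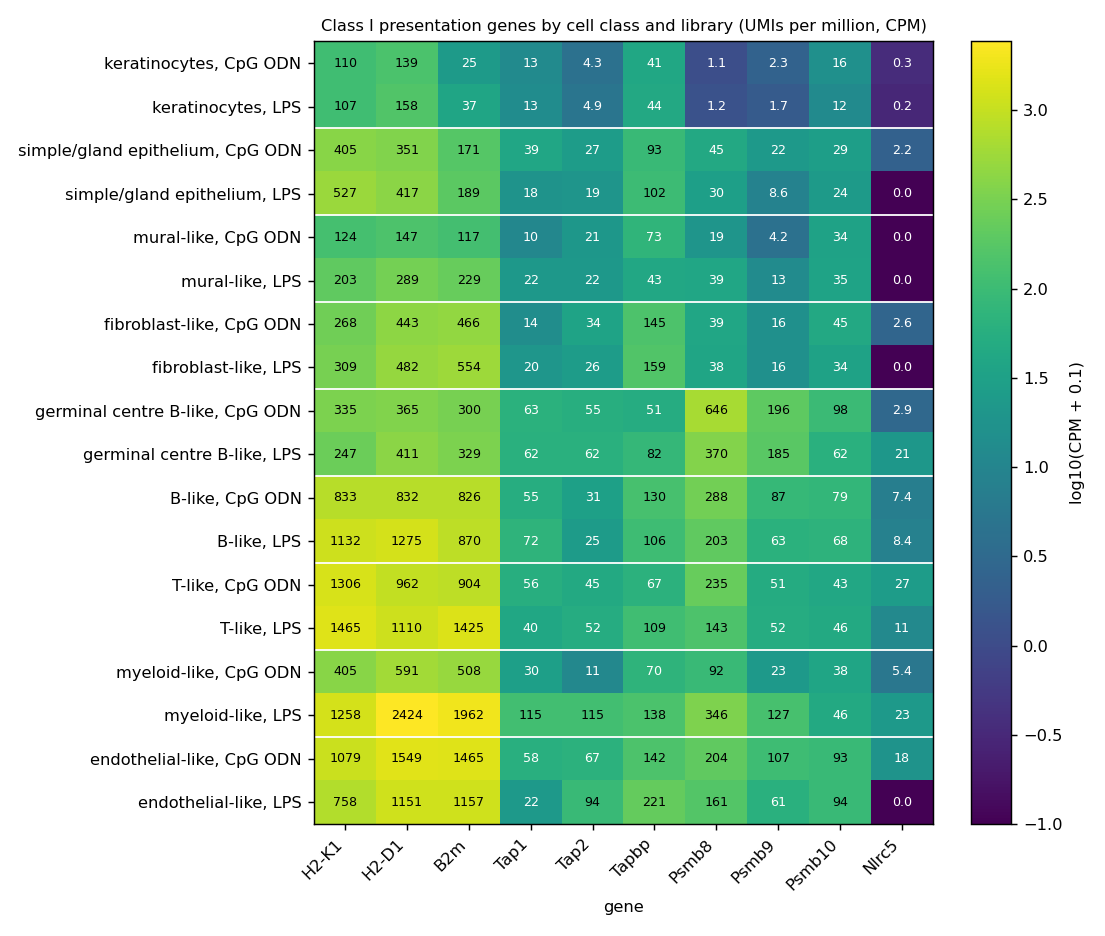
The heat map gives the level (CPM, printed in each cell and coloured as log10 of CPM + 0.1) of the 10 members (columns) in 9 cell classes of each library. H2-K1 and H2-D1 are between 107 and 158 CPM in keratinocytes and at least 758 CPM in B-like, T-like and endothelial-like cells of both libraries, and Psmb8 is near 1 CPM in keratinocytes and at least 143 CPM in those 3 classes.

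The heavy chains H2-K1 and H2-D1, which hold the peptide, were seen in most keratinocytes. H2-K1 stood at 110 CPM [107 to 112] after CpG ODN and 107 CPM [104 to 111] after LPS, and H2-D1 at 139 CPM [136 to 142] and 158 CPM [154 to 163]. A UMI of H2-K1 was found in 70.3% and 83.2% of keratinocytes and one of H2-D1 in 78.2% and 92.5%, and the gap between libraries was mostly lost when each cell was thinned to 1500 UMIs, where the shares were 14.7% and 14.4% for H2-K1 and 17.9% and 19.8% for H2-D1 and no keratinocyte was too shallow to enter. Ratios over keratinocytes were moderate for both heavy chains. In B-like cells H2-K1 was at 833 and 1132 CPM, 7.60 times [6.96 to 8.29] and 10.5 times [9.26 to 11.9] the level in keratinocytes, and H2-D1 was at 832 and 1275 CPM, 5.97 and 8.06 times that level. B-like cells held fewer UMIs in all (medians of 2149 and 3157), and a mean of 1.99 and 3.88 UMIs of H2-K1 per cell, against 1.88 and 3.73 per keratinocyte, so the called difference is one in the share of the UMIs. H2-D1 had 1.98 and 4.38 UMIs per B-like cell and 2.39 and 5.49 per keratinocyte. Endothelial-like cells had 1079 and 758 CPM of H2-K1 and 1549 and 1151 CPM of H2-D1. H2-D1 exceeded H2-K1 in keratinocytes and not in T-like cells: the ratio of their UMIs was 1.27 [1.23 to 1.31] and 1.47 [1.41 to 1.54] in keratinocytes and 0.737 and 0.758 in T-like cells. These 2 genes and other heavy chain genes have near-identical stretches, so some reads may have been placed on the wrong one.

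B2m, the light chain, was much further apart between classes than the heavy chains that it holds. Keratinocytes had 24.7 CPM [23.5 to 25.9] and 37.2 CPM [35.2 to 39.4], B-like cells 826 and 870 CPM, T-like cells 904 and 1425 CPM, endothelial-like cells 1465 and 1157 CPM and fibroblast-like cells 466 and 554 CPM. Over keratinocytes B2m was 33.5 times [30.3 to 36.9] and 23.4 times [20.1 to 27.1] higher in B-like cells, 59.4 and 31.1 times in endothelial-like cells, and 18.9 and 14.9 times in fibroblast-like cells. For each UMI of H2-K1 and H2-D1 together, keratinocytes held 0.0991 UMIs of B2m [0.0940 to 0.104] and 0.140 [0.132 to 0.149]. The same ratio was 0.496 and 0.361 in B-like cells, 0.398 and 0.553 in T-like cells, 0.557 and 0.606 in endothelial-like cells and 0.656 and 0.701 in fibroblast-like cells. Simple or gland epithelium-like cells, at 0.226 and 0.200, lay between keratinocytes and these classes. A UMI counts 1 molecule whatever the transcript length, but genes can differ in capture, so these ratios are read between classes and not as the number of light chains per heavy chain.

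**Figure D2:**
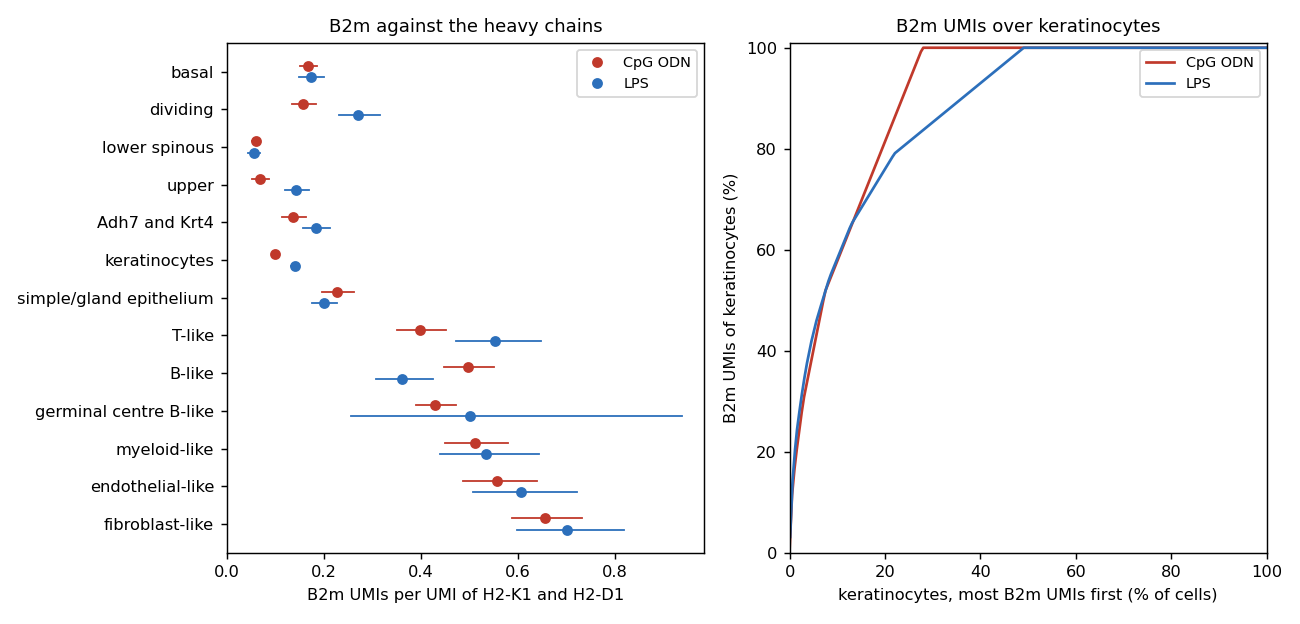
The left panel plots B2m UMIs per UMI of H2-K1 and H2-D1 (horizontal axis) with its 95% counting interval for each class or layer and library, from 0.0550 in lower spinous keratinocytes after LPS to 0.701 in fibroblast-like cells after LPS. The right panel plots the share of keratinocyte B2m UMIs (vertical axis, percent) against the share of keratinocytes, those with the most B2m UMIs first. The highest 1% of cells held 16.5% of the UMIs after CpG ODN and 19.3% after LPS. At 10.0% and 10.1% of cells the curves are at 57.9% and 58.5%, and at 20.0% and 20.1% of cells at 81.5% and 76.1%.

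The immunoproteasome subunits fell into 2 patterns. Psmb8 had 66 UMIs in 44 of 3666 keratinocytes after CpG ODN (1.05 CPM [0.812 to 1.34]) and 39 UMIs in 27 of 960 after LPS (1.17 CPM [0.832 to 1.60]). It was 274 times [206 to 368] and 173 times [111 to 271] higher in B-like cells (288 and 203 CPM), 223 and 122 times in T-like cells and 194 and 137 times in endothelial-like cells. These were the largest ratios over keratinocytes of the 10 members in those 3 classes of both libraries. Psmb9 went the same way with smaller ratios, from 2.29 and 1.71 CPM in keratinocytes to 87.5 and 63.3 CPM in B-like cells (38.2 and 37.0 times). Psmb10, the third subunit, was present in keratinocytes at 15.6 CPM [14.7 to 16.6] and 12.3 CPM [11.1 to 13.6], and B-like cells had 78.6 and 67.6 CPM of it, 5.03 and 5.49 times more. Keratinocytes held 69.2% and 77.4% of all Psmb10 UMIs but, as above, few of those of Psmb8.

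Tap1 and Tapbp had smaller ratios in B-like cells than the heavy chains, and Tap2 did not in every class. Tap1, one chain of the peptide pump, was at 12.5 CPM [11.7 to 13.4] and 13.4 CPM [12.1 to 14.7] in keratinocytes and at 54.9 and 71.8 CPM in B-like cells (4.38 and 5.38 times). Tap2, the other chain, was at 4.27 and 4.89 CPM in keratinocytes and 31.1 and 25.3 CPM in B-like cells (7.30 and 5.18 times), and in endothelial-like cells at 66.6 and 94.1 CPM. Tapbp, the loading factor, was at 40.5 CPM [39.0 to 42.1] and 44.2 CPM [42.0 to 46.5] in keratinocytes and at 130 and 106 CPM in B-like cells, the smallest ratio over keratinocytes in B-like cells of both libraries (3.22 and 2.39). Tap1 did not set fibroblast-like cells apart from keratinocytes, with 13.8 and 20.1 CPM, which was not called in either library. Nlrc5, the transactivator, was near the limit of detection, with 16 and 7 UMIs in all keratinocytes (0.255 and 0.210 CPM), 5 and 2 in B-like cells and 10 and 2 in T-like cells.

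The members with enough UMIs were then counted beside all genes tested. In B-like cells 10 of 10 members were higher after CpG ODN, where 23.8% of all genes tested were, and 9 of 9 after LPS (17.3%). The counts were 10 of 10 and 9 of 9 in T-like cells (15.4% and 13.4%), 10 of 10 and 8 of 9 in endothelial-like cells (24% and 21.1%), and 10 of 10 and 9 of 9 in myeloid-like cells (14.2% and 12.7%). In fibroblast-like cells 8 of 9 were higher in each library (35% and 29.1%), in simple or gland epithelium-like cells 9 of 9 and 8 of 9 (24.6% and 26.1%), and in germinal centre B-like cells after CpG ODN 9 of 10 (34.1%). Mural-like cells, the smooth muscle and pericytes of vessels, had 5 of 9 and 7 of 9 (23.6% and 22.1%), and the few Schwann-like cells 1 of 9 and 2 of 9 (12.3% and 10.5%). In mural-like cells after CpG ODN, H2-K1 (124 CPM) and H2-D1 (147 CPM) were not called. The members' median log2 ratio over keratinocytes was 2.90 and 3.01 in B-like cells, where that of all genes tested was 0.27 and 0.35, and 1.84 and 1.84 in fibroblast-like cells, where it was 0.47 and 0.46. Nlrc5 entered these counts only where keratinocytes and the other class together had enough UMIs, which they did in no class after LPS.

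**Figure D3:**
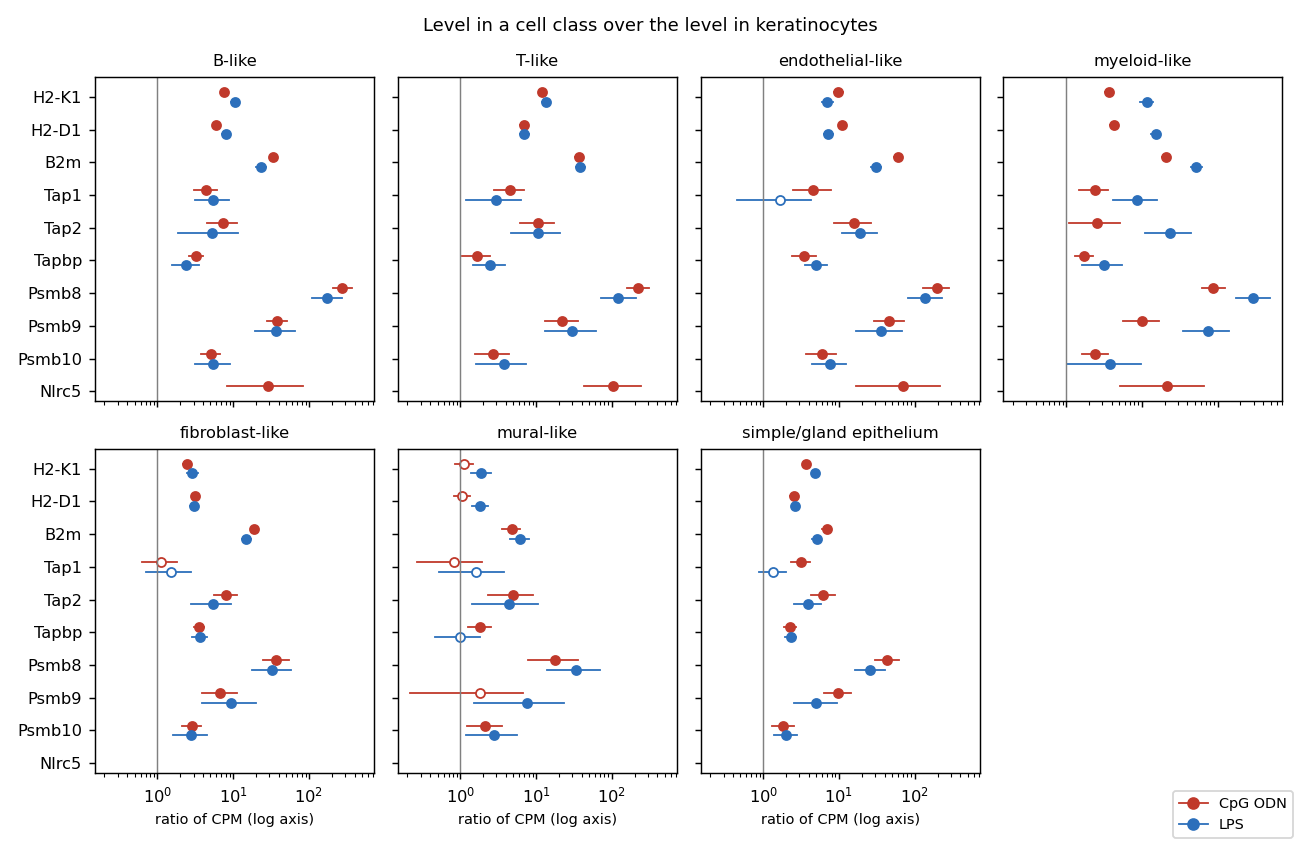
Each panel plots, for 1 cell class, the ratio of CPM over keratinocytes (horizontal log axis) with its 95% counting interval for each member (vertical axis) in the CpG ODN (red) and LPS (blue) library, with filled points where a member was called. Psmb8 lies furthest right in B-like cells (274 and 173) and Tapbp furthest left (3.22 and 2.39), and the mural-like panel holds the most open points.

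The low levels in keratinocytes were set against barcodes with mostly hemoglobin UMIs. These barcodes may hold class I RNA of their own, so their values are not a measure of free RNA. Among barcodes under 800 genes, 474 and 604 held mostly hemoglobin UMIs, with medians of 876 and 2017 UMIs per barcode, and their members' UMIs came to 1.48 and 1.82 of B2m per 100 barcodes, against 42.3 and 129 per 100 keratinocytes, whose medians were 13194 and 27127 UMIs. Psmb8 gave 1 UMI in the CpG ODN barcodes (0.211 per 100) and 0 in the LPS ones, which allows up to 0.497 per 100, against 1.80 and 4.06 per 100 keratinocytes. Counted per 1000000 UMIs other than hemoglobin, however, these barcodes held 98.6 and 89.0 CPM of B2m, more than the 24.7 and 37.2 CPM of keratinocytes, and 14.1 CPM of Psmb8 after CpG ODN [0.356 to 78.4]. A free RNA share in the lowest keratinocyte values, Psmb8 above all, was not tested. Ptprc, a gene of all white blood cells, was at 0.493 and 0.0600 CPM in keratinocytes. The 8 T cell markers together were at 37.3 and 33.7 CPM there, with Cd3e, Cd3d, Cd3g, Trbc1, Cd2 and Il7r at 0 after LPS.

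Germinal centre B-like cells, found almost entirely after CpG ODN, had lower heavy and light chain levels than B-like cells and higher levels of some immunoproteasome and transport genes. H2-K1 (335 against 833 CPM), H2-D1 (365 against 832), B2m (300 against 826) and Tapbp (51.1 against 130) were lower, at ratios of 0.402 [0.359 to 0.451], 0.438 [0.392 to 0.490], 0.364 [0.324 to 0.409] and 0.392 [0.292 to 0.526]. The germinal centre B-like cells held more UMIs in all (median 5966 against 2149), so these calls are lower shares of the UMIs. Per cell they had more UMIs of H2-K1 (2.85 against 1.99), H2-D1 (3.10 against 1.98), B2m (2.56 against 1.97) and Tapbp (0.435 against 0.311). Psmb8 (646 against 288 CPM), Psmb9 (196 against 87.5) and Tap2 (55.0 against 31.1) were higher, at 2.24 [1.93 to 2.62], 2.24 [1.7 to 3.0] and 1.77 [1.10 to 2.97]. So 3 of the 9 members with enough UMIs were higher and 4 lower, where 27.6% of all genes were higher and 13.2% lower, so the share higher was near that of all genes, and Tap1 (1.15) and Psmb10 (1.25) were not called. Of the other genes of the pathway, all 6 other heavy chain genes with enough UMIs were lower, from H2-Q7 (0.0820) and H2-Q6 (0.271) to H2-Q4 (0.642). Proteasome genes were higher in 7 of 9 cases, among them Psmb7 (3.14), Psmb6 (2.01) and Psmb5 (2.32), the subunits that the immunoproteasome replaces, and the maturation factor Pomp (2.82). Of the regulators 5 of 11 were lower, among them Irf9 (0.154) and Irf1 (0.434), and of the interferon receptor chains 3 of 4, Ifngr2 (0.204), Ifnar1 (0.331) and Ifnar2 (0.235). The summed markers of B-like cells were at 11342 CPM in the germinal centre B-like cells and 18268 CPM in the B-like cells. The LPS library held only 4 such cells, so the comparison was made after CpG ODN alone.

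Within the epithelium, 1144 and 262 keratinocytes were basal-like, 284 and 78 dividing, 459 and 143 lower spinous-like, 91 and 33 upper-like, and 103 and 72 matched the list H19, Adh7, Krt13 and Krt4 by its last 3 genes and not by H19 (Adh7 and Krt4 cells below). Clusters between these layers that met no marker rule were left unnamed. They were clusters 1 (407 and 92 cells), 3 (375 and 60), 8 (262 and 53), 10 (237 and 54) and 12 (213 and 39). The layer values leave these many cells out, and those of all keratinocytes include them. Medians of UMIs per cell went from 9428 and 18256 in basal-like cells to 35754 and 78780 in upper-like cells, and keratin genes took 3.44% and 3.40% of UMIs in basal-like cells against 17.1% and 16.4% in upper-like cells. CPM of other genes is lowered by such a rise, and the median log2 ratio of all genes over basal-like cells was -0.56 and -0.51 in lower spinous-like and -0.95 and -0.99 in upper-like cells. These layers were named from other genes, and the members took no part in the clustering.

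From basal-like to lower spinous-like cells B2m was lower and the heavy chains were not called. H2-K1 stood at 92.1 and 97.8 CPM in basal-like, 103 and 92.5 in lower spinous-like and 96.2 and 93.1 in upper-like cells, and H2-D1 at 118 and 144, 141 and 138, and 219 and 297 CPM. B2m was at 35.2 CPM [31.8 to 38.9] and 41.8 CPM [36.4 to 47.8] in basal-like cells and at 14.5 CPM [12.6 to 16.6] and 12.7 CPM [10.3 to 15.5] in lower spinous-like cells, ratios of 0.411 [0.346 to 0.487] and 0.304 [0.237 to 0.387]. The B2m intervals of these 2 layers did not overlap in either library. B2m per heavy chain UMI was 0.167 and 0.173 in basal-like cells and 0.0594 and 0.0550 in lower spinous-like cells. In upper-like cells B2m was again at 21.4 and 55.8 CPM, called lower than in basal-like cells after CpG ODN (0.609) and not called after LPS (1.33). Of the heavy chains only H2-D1 was called higher in upper-like cells, 1.86 times [1.69 to 2.04] and 2.06 times [1.86 to 2.28] basal-like cells, with H2-K1 at 1.04 and 0.952, so that the H2-D1 to H2-K1 ratio reached 2.28 and 3.19 there.

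The pump and loading genes did not go one way in the same layers. Tap1 was higher in lower spinous-like cells, 17.3 and 23 CPM against 9.47 and 9.27 in basal-like cells (1.83 times [1.45 to 2.32] and 2.48 times [1.79 to 3.49]). Its partner Tap2 was lower, 1.59 and 3.34 CPM against 5.68 and 6.11 (0.280 and 0.546). Without the 10% of cells with the most Tap2 UMIs, a setting chosen after seeing the data, the LPS ratio turned to 6.38 [0.907 to 277], and after CpG ODN that setting gave no value. Tap2 was also lower in upper-like cells (0.164 and 0.121, from 3 and 2 UMIs there). Tapbp was higher in upper-like cells, 62.1 and 66.1 CPM against 35.1 and 29.6 (1.77 and 2.24 times). Psmb10 was lower in both layers, at 0.531 and 0.463 in lower spinous-like and 0.272 and 0.312 in upper-like cells. No UMI of Psmb8 or Psmb9 was found in the 91 and 33 upper-like cells, which allows up to 0.931 and 1.11 CPM, against 1.89 and 2.17 CPM of Psmb8 in basal-like cells.

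Counted over the members with enough UMIs, 1 of 9 was higher and 4 lower in lower spinous-like cells after CpG ODN (background 13.1% and 47%), and 2 of 7 were higher and 3 lower after LPS (12.8% and 44.2%). In upper-like cells 2 of 9 were higher and 5 lower after CpG ODN (15.1% and 57.5%), and 2 of 7 were higher and 2 lower after LPS (16.4% and 58.4%). The shares called lower were near or below those of all genes, so the count of lower members says nothing particular about them. Of the other genes of the pathway, 13 of 36 and 12 of 35 were lower in lower spinous-like cells. These shares were below the 47% and 44.2% of all genes, so these counts say nothing particular either. Among the lower genes were the receptor chains Ifnar2 (0.0697 and 0.0874) and Ifngr1 (0.192 and 0.121), the class I and II promoter factor Rfx5 (0.259 and 0.274) and the proteasome activator Psme1 (0.504 and 0.539). H2-T23, which encodes the nonclassical heavy chain Qa-1, was higher in both (2.47 and 1.59).

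**Figure D4:**
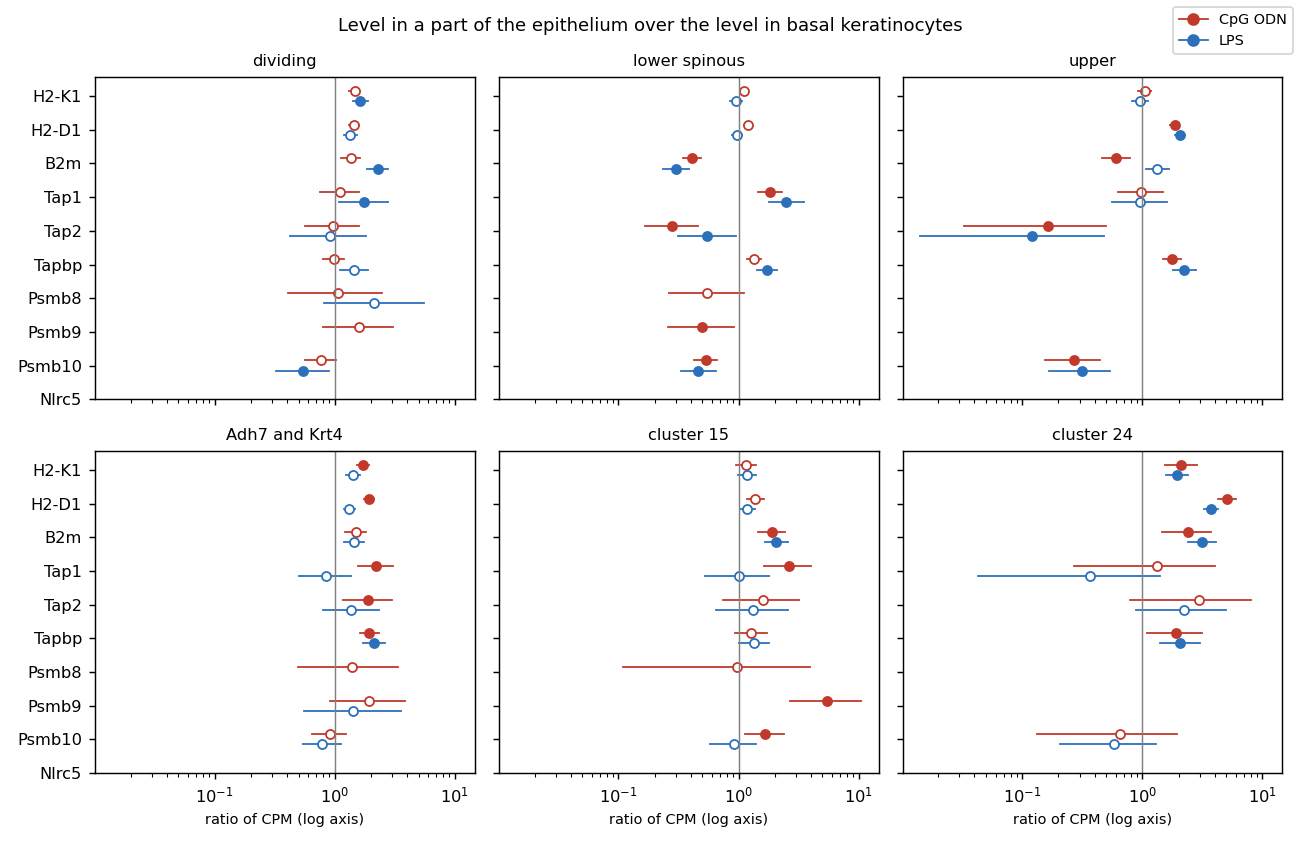
Each panel plots the ratio of CPM over basal-like keratinocytes (horizontal log axis) with its 95% counting interval for each member (vertical axis) in 1 part of the epithelium, CpG ODN in red and LPS in blue, with filled points where a member was called. In the lower spinous panel B2m (0.411 and 0.304) and Psmb10 (0.531 and 0.463) lie left of 1 and Tap1 (1.83 and 2.48) right of it in both libraries, with H2-K1 and H2-D1 near 1.

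Summed over the members, smaller groups of cells were above basal-like cells (320 and 350 CPM) in both libraries. Adh7 and Krt4 cells were at 564 and 488 CPM and dividing cells at 424 and 532 CPM. Clusters 15 and 24, described below, were at 464 and 449 CPM and at 986 and 955 CPM. The counts of members called in Adh7 and Krt4 cells after LPS and in dividing cells after CpG ODN were near or below the share of all genes. In Adh7 and Krt4 cells, 5 of 9 members were higher after CpG ODN (background 12.8%), namely H2-K1 (158 CPM, 1.71 times), H2-D1 (228 CPM, 1.93 times), Tap1 (2.21), Tap2 (1.91) and Tapbp (1.95), and only Tapbp of 8 after LPS (2.14, background 13%). Dividing cells had none of 9 higher after CpG ODN (12.7%) and 3 of 8 after LPS (12.2%), which were H2-K1 (1.63), B2m (2.28) and Tap1 (1.75). Cluster 15, with 91 and 74 cells led by H19, Krt15 and Mt3, had B2m higher in both libraries (1.9 and 2.06). The LPS ratio turned to 0.878 at Leiden resolution 0.5 and 0.874 with at least 200 genes per cell. After CpG ODN Tap1 (2.61), Psmb9 (5.44) and Psmb10 (1.65, and 0.950 at Leiden resolution 0.5) were higher there too, 4 of 9 members against 1 of 7 after LPS (5.33% and 6.63% of all genes). Cluster 24, of only 17 and 17 cells, was left unnamed, was led by Odam, a gene of the epithelium at the tooth surface, and Sprr2d, and had H2-D1 5.07 and 3.73 times, B2m 2.4 and 3.13 times, H2-K1 2.10 and 1.95 times and Tapbp 1.92 and 2.07 times the basal level, 4 of 9 and 4 of 7 members (11.9% and 14%).

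Between the ligands, only B2m was called in keratinocytes as a whole. Of the 10 members, which all had enough UMIs, B2m was called lower after CpG ODN (24.7 against 37.2 CPM, ratio 0.662 [0.614 to 0.714]), where 6.05% of all genes were called either way. H2-K1 (1.02 [0.979 to 1.06]), Tapbp (0.917) and Tap1 (0.938) lay near 1, and H2-D1 (0.881 [0.851 to 0.912]) and Psmb10 (1.27 [1.13 to 1.43]) had intervals without 1 at less than 1.5-fold. The B2m difference was not spread over all layers. It was 0.502 [0.410 to 0.615] in dividing cells (47.9 against 95.3 CPM, the only call among 8 members, background 5.66%) and 0.384 [0.285 to 0.514] in upper-like cells (21.4 against 55.8 CPM, the only call among 6, background 15.9%). In basal-like cells it was 0.842 with no member called of 9 (background 3.74%), and in lower spinous-like cells 1.14, where Tap2 was the only call of 8 (0.477, background 4.56%). The basal-like clusters differed. Cluster 4 (309 and 54 cells) had 2 of 7 members lower after CpG ODN (background 5.68%). Clusters 0 and 2 had none called of 7 and 9 (4.43% and 4.72%). B2m per heavy chain UMI was 0.119 and 0.194 in cluster 4, 0.149 and 0.190 in cluster 0 and 0.223 and 0.149 in cluster 2. The B2m value in all keratinocytes sat at the edge of the rule: without the single cell with the most B2m UMIs of each library it was 0.676, and with each cell given equal weight 0.700, neither of which was called, while dividing and upper-like cells kept the call under both. The mix of keratinocytes also differed. Adh7 and Krt4 cells made up 2.11% and 5.64% of the cells kept, and cluster 15 1.86% and 5.79%. B2m per heavy chain UMI was 0.137 and 0.183 in the first and 0.247 and 0.303 in the second, against 0.0991 and 0.140 in all keratinocytes. The part of this mix in the value of all keratinocytes was not tested.

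B2m UMIs were unevenly spread over the keratinocytes of both libraries, which was seen after the values were known. At a mean of 0.423 and 1.29 B2m UMIs per keratinocyte, counting alone gives an uneven spread, and the shares below were not set against it. The 10 cells with the most B2m held 7.68% of its UMIs among keratinocytes in the CpG ODN library, against 19.3% in the LPS library. In dividing cells the shares were 37.2% and 70.9%, and in upper-like cells 52.2% and 82.8%. These 10 cells are a larger part of the smaller LPS groups. The highest 1% of cells held 16.5% and 19.3% of the B2m UMIs of all keratinocytes. That share was 13.3% and 12.7% in basal-like, 19.9% and 15.5% in dividing and 15.8% and 10.1% in lower spinous-like cells. It was 17.4% and 23.2% in upper-like cells and 8.51% and 18.1% in Adh7 and Krt4 cells, from 1 cell each. The LPS values of dividing and lower spinous-like cells also came from 1 cell each. A single keratinocyte held up to 17 and 39. The 37 and 10 keratinocytes in the highest 1% also had more H2-K1 than the other keratinocytes (3.14 and 2.50 times) and more H2-D1 (3.14 and 2.33 times). Psmb8 was higher in them too (21.4 and 16.7 times, from only 15 and 12 UMIs), with Tapbp at 2.27 [1.79 to 2.85] and 1.18 [0.858 to 1.59] times. These genes did not choose the cells. The medians of these cells were 22337 and 69722 UMIs against 13126 and 26959. The part of this depth in the result, and that of doublets or free RNA of other cells, was not tested. Without the highest 10% of cells, a setting chosen after seeing the data, B2m stayed called in keratinocytes (0.651), dividing cells (0.537) and upper-like cells (0.359).

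Tap1 was higher after CpG ODN in 3 epithelial groups outside the layers from basal to upper. It stood at 20.9 against 7.80 CPM in Adh7 and Krt4 cells (2.68 [1.68 to 4.39], 1 of 8 members called, background 6.65%), and at 24.7 against 9.27 CPM in cluster 15 (2.67 [1.39 to 5.30], with Psmb10 at 1.98, 2 of 7 called, background 5.87%). In simple or gland epithelium-like cells it was at 39.1 against 17.9 CPM (2.19 [1.35 to 3.62]), with Psmb9 at 2.57 and Psmb8 at 1.51, 3 of 9 called (background 19.8%). Of the 2 clusters in this class, cluster 16 (93 and 52 cells) had Tap1 called (2.30) and not Psmb8 (1.22), and cluster 25 (12 and 14 cells, with mucin genes) had Psmb8 called (3.59) and not Tap1 (2.16). These were the only calls, 1 of 9 in cluster 16 (background 23.2%) and 1 of 7 in cluster 25 (8.87%), so Psmb9 was called in neither. Of other genes of the pathway, 4 of 35 were higher and 2 lower in gland-like cells, where 11.6% and 8.19% of all genes were. The share higher was near that of all genes, so that count says nothing particular. In Adh7 and Krt4 cells 2 of 31 were higher and 1 lower (2.87% and 3.78%). Among those higher was Stat2, a transcription factor that acts below the type I interferon receptor, in gland-like cells (33.9 against 14.5 CPM, 2.33 times) and in Adh7 and Krt4 cells (5.23 against 1.95 CPM, 2.68 times, from 14 and 7 UMIs). Irf7 was higher in gland-like cells (2.60), and Irf1 was lower in Adh7 and Krt4 cells (0.445). In cluster 15 neither Stat2, Irf7 nor Irf1 was called, and the Tap1 difference there was not called at Leiden resolution 2.0 (1.37) or with at least 200 genes per cell (1.31). In gland-like cells the 10 myeloid markers summed to 21.4 CPM after CpG ODN and 1230 CPM after LPS, with Tyrobp, Fcer1g, Csf1r, Itgax and Cd207 at 0 in both, and their part in the Tap1 difference was not tested.

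**Figure D5:**
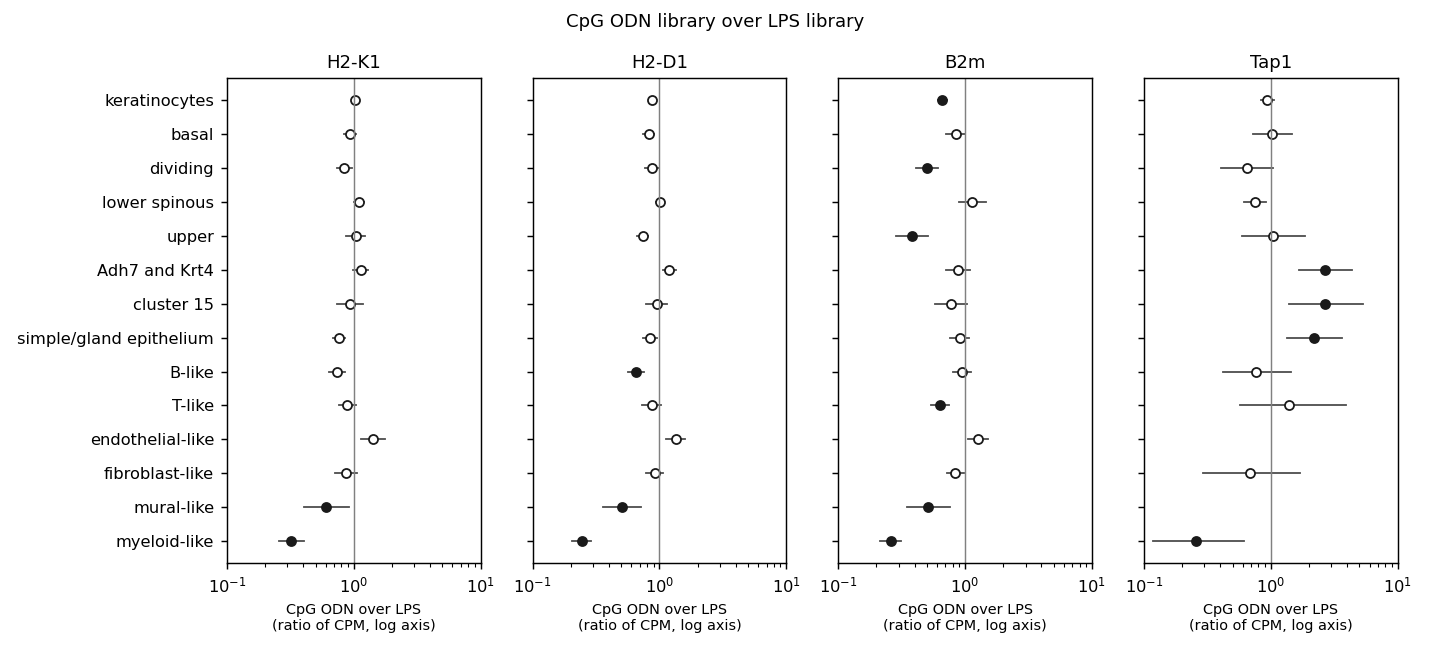
The 4 panels plot the ratio of CPM in the CpG ODN library over the LPS library (horizontal log axis) with its 95% counting interval for H2-K1, H2-D1, B2m and Tap1 in each class or layer (vertical axis), with filled points where the gene was called. B2m lies left of 1 in keratinocytes (0.662), dividing (0.502) and upper-like cells (0.384), Tap1 lies right of 1 in Adh7 and Krt4 cells (2.68), cluster 15 (2.67) and gland-like cells (2.19), and the myeloid-like points lie furthest left.

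Outside the epithelium, endothelial-like and fibroblast-like cells had no call, among 8 members in the first (background 9.51%) and 9 in the second (8.59%). In B-like cells H2-D1 was lower after CpG ODN (832 against 1275 CPM, 0.652 [0.566 to 0.753]), 1 of 9 (6.62%). In T-like cells B2m was lower (904 against 1425 CPM, 0.634) and Psmb8 higher (235 against 143 CPM, 1.64 [1.04 to 2.67]), 2 of 9 (9.99%). The T-like cells included epithelial RNA, with the 11 epithelial markers at 16046 and 9653 CPM, and with at most 1% of keratin UMIs per cell, a limit chosen after seeing the data, the B2m ratio was 0.789 and not called. In mural-like cells H2-K1 (0.610), H2-D1 (0.508) and B2m (0.514) were lower, 3 of 5 (11.7%). In the CpG ODN library 1.18% of the mural-like UMIs were from keratin genes, in the LPS library 0.216%, and in cells with at most 1% H2-K1 (0.644) and H2-D1 (0.560) were still called and B2m (0.673) was not.

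Myeloid-like cells had the largest differences between the ligands, in cells that also differed in epithelial RNA. H2-K1 was at 405 CPM after CpG ODN and 1258 CPM after LPS (0.322), H2-D1 at 591 and 2424 CPM (0.244), B2m at 508 and 1962 CPM (0.259), Tap1 at 29.8 and 115 CPM (0.258), Psmb8 at 92.1 and 346 CPM (0.266) and Psmb9 at 23 and 127 CPM (0.181), 6 of 8 members lower, where 30.8% of all genes were called either way. The 11 epithelial markers were at 36441 CPM in these cells after CpG ODN and 450 CPM after LPS, with Krt5, Krt15, Dsp and Trp63 at 0 after LPS, and keratin genes took 5.19% and 0.0392% of the UMIs. The 10 myeloid markers were at 3783 and 34275 CPM. In the 30 of 62 and 13 of 13 cells with at most 1% keratin UMIs, H2-K1 (0.872), B2m (0.929), Tap1 (0.543), Psmb8 (0.724) and Psmb9 (0.642) were not called, and H2-D1 was (0.649 [0.538 to 0.783]). With cells named by the study's signature genes, the ratios of H2-D1 (1.18), B2m (1.82), Tap1 (1.67), Psmb8 (1.62) and Psmb9 (1.81) turned direction, as did Psmb8 (1.16) with at least 200 genes per cell, so no direction can be read from these cells.

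The other genes of the pathway, 60 found of 61 listed, were set beside the members. Over keratinocytes, 23 of 42 with enough UMIs were higher and 6 lower in B-like cells after CpG ODN (background 23.8% and 21.3%). After LPS 18 of 42 were higher and 5 lower (17.3% and 15%). The shares lower were below those of all genes. The other heavy chain genes were higher in 7 of 9 and 9 of 10 cases, beside the same 23.8% and 17.3% of all genes. H2-T23 was at 23.3 and 36.2 CPM in keratinocytes and 147 and 165 in B-like cells, and H2-T22 at 11.3 and 17.8 against 66.7 and 42.2. Of 9 proteasome genes, 4 were lower, 1 higher and 4 not called in B-like cells of each library, where 21.3% and 15% of all genes were lower: Psmb5 was at 231 and 226 CPM in keratinocytes and 111 and 110 in B-like cells, and Pomp at 260 and 262 against 117 and 122. The chaperone Calr (408 and 341 CPM in keratinocytes, 302 and 359 in B-like cells) and Hspa5 (243 and 232, 425 and 363) were abundant in both. Irf1 was at 42.9 and 47.8 CPM in keratinocytes and at 413 and 327 CPM in endothelial-like cells, and Rfxap, a subunit of the RFX promoter factor, at 36.3 and 33.7 CPM in keratinocytes and 26.6 and 11.1 in endothelial-like cells. The receptor chain Ifngr1 was at 8.85 and 8.85 CPM in keratinocytes and 216 and 309 CPM in T-like cells, and Ifnar2 at 12.1 and 11.5 against 45.3 and 45.8. Nkg7 (251 and 240 CPM) and Cd8b1 (192 and 103 CPM), genes of cells that read class I, were found in T-like cells. Pirb, an inhibitory receptor for class I, was at 25.7 and 323 CPM in myeloid-like cells (19 and 28 UMIs) and at 23.7 and 29.6 CPM in B-like cells (16 and 7 UMIs). Lilrb4a, of the same receptor group, was at 44.7 and 219 CPM in myeloid-like cells (33 and 19 UMIs), with 2 UMIs in T-like cells after CpG ODN.

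Between the ligands, 3 of the 40 other pathway genes with enough UMIs in keratinocytes were called, a share near the 6.05% of all genes. They were the heavy chain genes H2-T23 (0.644 [0.597 to 0.696]), H2-T22 (0.639 [0.572 to 0.714]) and H2-Q10 (0.371, from 14 and 20 UMIs), lower after CpG ODN. Others were called in at least 2 classes outside the keratinocytes: Ifnar1 was lower in myeloid-like (0.156) and T-like cells (0.466), Ifngr2 likewise (0.235 and 0.248), and Hspa5 too (0.545 and 0.489). H2-Q7 was higher in endothelial-like cells (4.01) and lower in myeloid-like cells (0.337), and Sec61a1 was lower in gland-like cells (0.570) and higher in the hemoglobin-rich cells (3.77). Irf1 was lower in myeloid-like (0.436) and Schwann-like cells (0.406). Of all genes tested, 30.8% were called either way in myeloid-like, 25.2% in Schwann-like and 9.99% in T-like cells. The backgrounds were 19.8% in gland-like, 9.51% in endothelial-like and 8.54% in hemoglobin-rich cells. The 11 epithelial markers were at 36441 and 450 CPM in myeloid-like and 16046 and 9653 CPM in T-like cells. Their part in these ratios was not tested, and the limits given above for the myeloid-like cells hold here too.

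The pattern of the members over clusters and libraries was also compared with that of 11286 genes with at least 200 UMIs. Each point was 1 cluster in 1 library. Over 43 points of at least 20 cells, on log2(CPM + 10), genes outside the set among those with the highest Pearson r with the mean of the members were Sp100 (0.95), Ets1 (0.95), H2-Q4 (0.95), Akap13 (0.94), Trim12a (0.94), Itpkb (0.93) and Rftn1 (0.93). The members themselves, each part of that mean, went from 0.80 (Tapbp) and 0.82 (Tap1) to 0.96 (Psmb8), and Nlrc5 had too few UMIs. The points share 2 libraries and their depth, and many of the clusters are keratinocytes, so these values describe likeness in these libraries only.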

How the data were processed

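The authors made the deposited count tables with Cell Ranger (4.0.0 in the file headers): UMIs per gene and barcode, not normalized. They clustered cells in Seurat. The genome build of the counting is not given in the sources used here. Coordinates were matched by identifier to GENCODE M21, which holds 32158 of 32285 identifiers. Libraries of other parts of the study were not analysed here.

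The members, gene lists and tests were chosen with earlier results of these data known. Groups came from the sample labels. Cells with at least 800 genes were kept, as in the study, with no mitochondrial filter. Cells were scaled to 10000 UMIs and log-transformed, and 2000 variable genes, 30 principal components, 15 neighbours and Leiden resolution 1.0 gave the clusters (Python 3.11.15, scanpy 1.11.5, anndata 0.12.19, leidenalg 0.10.2, igraph 0.11.9, numpy 2.4.6, scipy 1.17.1, pandas 2.3.3, scikit-learn 1.9.0, matplotlib 3.10.9). Clusters were named from fixed markers, and rebuilt names need not match those of the study. Doublets were kept. Simulated doublets called 243 cells (4.97%) and 21 (1.64%), left out in an alternative.

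Counts were summed by class and library and given as CPM with exact Poisson intervals, exact conditional binomial intervals for ratios and exact Clopper-Pearson intervals for shares, all at 95%. With 1 library a ligand there is no test. Where no UMI was found, the limit was set at 3 counts. The calling rule was checked on simulated counts. Total counts per library set the precision, and the deeper LPS library has fewer cells. Named were all members, the markers of a class, pathway genes called between ligands in keratinocytes or in 2 or more other classes, the 2 most counted genes of each list and the 8 most alike, less some genes that are not reported here. Of other genes, those named in a layer, germinal centre B-like or gland-like comparison were chosen after their values were seen. Alternatives changed the gene minimum per cell, the Leiden resolution, the fold, the totals, doublets, mitochondrial and keratin limits, the cells with most UMIs, and the naming (signature genes cell by cell).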

Additional observations from a re-analysis of the deposited data

Results flagged for a closer look

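Some ratios between ligands were called in opposite directions in different cells. The difference between these classes was not tested, since each ligand has 1 library. For Tap1, the CpG ODN/LPS ratio was 2.68 in Adh7 and Krt4 cells, 2.67 in cluster 15 and 2.19 in gland-like cells, and 0.258 in myeloid-like cells. For Psmb8 it was 1.51 in gland-like and 1.64 in T-like cells against 0.266 in myeloid-like cells. For Psmb9 it was 2.57 in gland-like cells, though it was called in neither of their clusters alone, against 0.181 in myeloid-like cells. The myeloid-like cells after CpG ODN carried 5.19% keratin UMIs against 0.0392% after LPS, and with at most 1% per cell Tap1 (0.543), Psmb8 (0.724) and Psmb9 (0.642) were not called. With cells named by the study's signature genes the myeloid-like ratios turned to 1.67 for Tap1, 1.62 for Psmb8 and 1.81 for Psmb9. That naming can take in other cells, and the cause of the change was not tested.

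Barcodes outside the comparisons also held class I RNA. The barcodes under 800 genes with mostly hemoglobin UMIs held 4 UMIs of H2-K1, 7 of H2-D1 and 7 of B2m after CpG ODN, and 4, 5 and 11 after LPS, above the 3 counts that a count of 0 allows. Other barcodes under 800 genes, named from the same markers, had the 10 members at 3501 CPM (463 barcodes) after CpG ODN and 4290 CPM (6 barcodes) after LPS where B-like, and at 5134 CPM (28 barcodes) after CpG ODN where T-like. Myeloid-like ones had 2079 CPM and 3341 CPM, and epithelial-like ones 406 CPM and 468 CPM. The order of the classes in these shallow barcodes after CpG ODN was T-like, B-like, myeloid-like and epithelial-like, as among the cells kept.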

How the results depend on the processing

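Each library was pooled from 4 mice, so no value carries the spread between mice. Depth limits Psmb8, Psmb9 and Nlrc5 in keratinocytes and all members in the 13 myeloid-like cells after LPS. No paired analysis was possible because neither ligand has a replicate. Over the 14 comparisons between ligands 22 calls were made. A fold of 2 left 12, and the signature genes of the study taken cell by cell gave 6 against 10 over the 5 comparisons they allow. Over the layers 44 calls were made, of which a fold of 2 left 26, and the other alternatives stayed within 1.5 times these counts. The 120 calls over keratinocytes and the 7 in germinal centre B-like cells stayed within 1.5 times under every alternative run. Of 73 called ratios followed, 26 kept their call in every setting. The summed level of the members in keratinocytes (350 and 381 CPM) was 623 and 670 CPM with mitochondrial, ribosomal, hemoglobin, keratin and immunoglobulin genes left out of the total, 366 and 413 with at least 200 genes per cell, 376 and 410 with signature genes, and 373 after LPS as a mean over cells. In settings chosen after seeing the data, it was 327 and 352 without the 1% and 248 and 277 without the 10% of cells with the most UMIs of the gene. Turned in direction were, in myeloid-like cells between ligands, H2-D1 (1.18), B2m (1.82), Tap1 (1.67), Psmb8 (1.62) and Psmb9 (1.81) with signature genes and Psmb8 (1.16) with at least 200 genes per cell. Over basal-like cells, cluster 15 had Psmb10 at 0.950 after CpG ODN and B2m at 0.878 after LPS with Leiden resolution 0.5, and B2m at 0.874 after LPS with at least 200 genes per cell. Tap2 in lower spinous-like cells after LPS was 6.38 without the 10% of cells with the most. These settings keep fewer or other cells, and the cause was not tested.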
